A study of Mus musculus with 10 samples.

Results

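The genes described here lie on mouse chromosome 16, where transcription from the Cast copy exceeded transcription from the B6 copy over the whole length of the chromosome. Members were all chromosome 16 genes for which B6 and Cast reads together reached 10 or more in each of 10 samples. This gave 393 of the 755 chromosome 16 genes, out of 24386 genes on all chromosomes. The chromosome was selected on its Cast excess in these data, measured as the share of B6 among allelic reads, so the excess and the genes that depart from it are given as a description, without a test.

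In a hybrid cell, each autosome is present as one copy from each parent strain, and single-base differences between the strains assign reads to a copy. The share of reads from one copy then measures its part in transcription, and it moves both with regulatory differences between the strains at single genes and with the number of copies of a chromosome. Mouse chromosome 16 carries at its far end most of the genes whose human counterparts lie on chromosome 21, and nearer its start the counterparts of the human 22q11.2 region, both well known for effects of gene dosage.

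The cells were TX1072, a female embryonic stem cell (ESC) line from a cross of Mus musculus castaneus (Cast) and C57BL/6 (B6) mice. On the B6 X chromosome its own Xist gene is driven by a promoter that responds to doxycycline (DOX), so that X inactivation can be started at will, and every sample carries this allele. Cells grown in serum with LIF and 2i received 1 μg/ml DOX for 4, 8, 12 or 24 h, or were taken at 0 h, with 2 replicates per time. New RNA was labelled with 0.5 mM 4-thiouridine for 5 min and sequenced by transient transcriptome sequencing (TT-seq), which reads RNA made during the labelling. One line was used, no cells without the inducible Xist were analysed here, and DOX, Xist RNA and time in culture cannot be told apart.

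Each library held 18809046 to 22274929 reads assigned to genes, of which 49.2% (replicate 1 at 0 h) to 52.8% were assigned to an allele. Xist was counted 31 and 32 times at 0 h and 6348 to 14211 times in the DOX samples, where 2 to 12 allelic reads per sample came from Cast and 2936 to 6487 from B6. ESC markers were abundant, with a summed level of 2819 to 3118 counts per 1000000 reads (CPM), against 2.49 to 20.4 CPM for each list of markers of primitive endoderm, primed epiblast or mesoderm, trophoblast and fibroblasts. Of the 9 ESC markers only Sox2 was listed at 0 in every library.

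The study's d-score, here called the B6 share, is the number of B6 reads over the sum of B6 and Cast reads of a gene. The sequences below are the 250 bases upstream of the transcription start of chromosome 16 genes to which the results return. Cbr1 and Cbr3 are neighbouring paralogs that leaned to opposite copies. Kng2 and Nxpe3 lie near the Cast and the B6 end of the members. Klhl22 and Gabpa were called for a change in share at 24 h in the edgeR test, and DESeq2 called neither. They are RefSeq entries on GRCm38.p6 (mm10), written 5′ to 3′ on the strand of the gene, with each CG dinucleotide in capitals.
Cbr1, chr16:93607587-93607836, plus strand: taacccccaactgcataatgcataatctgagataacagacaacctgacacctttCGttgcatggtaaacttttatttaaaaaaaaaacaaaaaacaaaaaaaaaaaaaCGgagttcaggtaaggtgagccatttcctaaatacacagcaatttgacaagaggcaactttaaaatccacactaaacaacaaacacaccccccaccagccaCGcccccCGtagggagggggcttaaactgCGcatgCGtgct
Cbr3, chr16:93682969-93683218, plus strand: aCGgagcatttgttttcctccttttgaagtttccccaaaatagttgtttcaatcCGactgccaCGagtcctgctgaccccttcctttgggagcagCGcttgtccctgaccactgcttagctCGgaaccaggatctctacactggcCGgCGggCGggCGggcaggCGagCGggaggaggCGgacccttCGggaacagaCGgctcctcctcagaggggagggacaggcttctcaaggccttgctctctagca
Kng2, chr16:23029102-23029351, minus strand: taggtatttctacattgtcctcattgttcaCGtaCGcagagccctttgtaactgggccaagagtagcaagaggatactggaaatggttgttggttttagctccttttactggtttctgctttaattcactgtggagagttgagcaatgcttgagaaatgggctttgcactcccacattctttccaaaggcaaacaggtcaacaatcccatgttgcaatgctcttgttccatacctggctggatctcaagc
Nxpe3, chr16:55895280-55895529, minus strand: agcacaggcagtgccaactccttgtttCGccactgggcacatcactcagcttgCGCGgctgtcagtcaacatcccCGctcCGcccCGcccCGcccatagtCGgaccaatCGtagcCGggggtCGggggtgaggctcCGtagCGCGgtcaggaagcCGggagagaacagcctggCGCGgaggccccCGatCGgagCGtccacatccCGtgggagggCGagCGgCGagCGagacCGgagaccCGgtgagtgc
Klhl22, chr16:17759371-17759620, plus strand: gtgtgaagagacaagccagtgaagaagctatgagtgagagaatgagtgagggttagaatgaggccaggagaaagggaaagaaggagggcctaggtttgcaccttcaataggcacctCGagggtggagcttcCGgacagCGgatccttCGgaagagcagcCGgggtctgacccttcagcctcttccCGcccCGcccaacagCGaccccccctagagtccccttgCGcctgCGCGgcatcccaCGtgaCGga
Gabpa, chr16:84834874-84835123, plus strand: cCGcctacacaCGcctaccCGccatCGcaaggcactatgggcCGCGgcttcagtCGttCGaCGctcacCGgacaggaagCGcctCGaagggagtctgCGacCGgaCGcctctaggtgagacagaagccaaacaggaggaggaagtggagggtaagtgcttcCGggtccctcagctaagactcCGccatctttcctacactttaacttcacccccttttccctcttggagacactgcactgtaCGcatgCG
The CG dinucleotide, the target of DNA methylation and dense in the promoters of broadly active genes, was counted on both strands at once since it reads the same on each. It occurred 6 times upstream of Cbr1, 14 times upstream of Cbr3, 2 times upstream of Kng2, 27 times upstream of Nxpe3, 13 times upstream of Klhl22 and 19 times upstream of Gabpa. At least 1 CG was found in 99.1%, and 10 or more in 77.1%, of the 8975 such windows of autosomal genes that pass the read limit, whose median was 17. RefSeq entries were matched for 320 of the 393 members.

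At the median gene of the chromosome the Cast copy gave 1.82 reads for each B6 read. The median B6 share of the members was 0.355 ± 0.002 (SD, n = 10 samples), between 0.352 and 0.357 in single samples. On the other 18 autosomes, the median of the 11150 genes passing the same limit was 0.526 ± 0.000965 (SD, n = 10), and by chromosome it lay between 0.517 on chromosome 4 and 0.538 on chromosome 3. No sample of chromosome 16 came near any sample of another autosome, whose lowest value was 0.513. On the log2 scale the median ratio of B6 to Cast reads was −0.86 for the members and 0.14 for the other autosomes, a difference of −1.005, which corresponds to a Cast to B6 ratio 2.01 times that of the other autosomes. These are bulk samples, so more cells with a given copy and more RNA per cell from that copy cannot be told apart, and the number of copies was not measured.

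Pooling the reads of all members gave 1809854 B6 and 3235904 Cast reads and a share of 0.359. In single samples the pooled share ran from 0.357 (Wilson 95% interval 0.356 to 0.358, 8 h replicate 2) to 0.361 (0.359 to 0.362, 12 h replicate 1). These intervals cover counting error only, since reads without molecular identifiers are not independent molecules. The 362 chromosome 16 genes below the read limit, of which 177 had no allelic read, also leaned to Cast, with 2706 B6 and 4556 Cast reads and a pooled share of 0.373 (0.362 to 0.384). Genes below the limit on the other autosomes had a pooled share of 0.530. Next to the limit, Il10rb (10 allelic reads in its lowest sample) and Vasn (11) were members with pooled shares of 0.368 and 0.411. Ppl and Htr1f, both with 9 in their lowest sample, were not members and had 0.350 and 0.378.

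**Figure D1:**
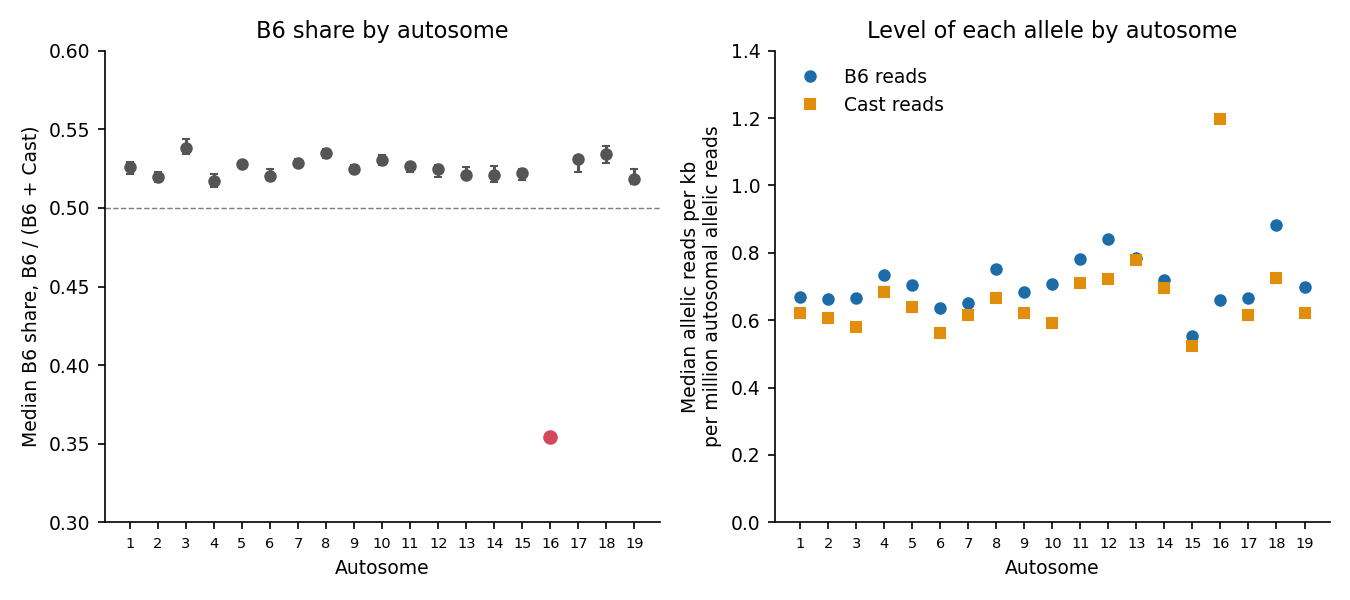
Left, median B6 share of the genes of each autosome that pass the read limit (point, mean of 10 samples; bars, lowest and highest sample; dashed line, equal reads from both copies). Right, median level of B6 and of Cast reads per kb of gene in 1000000 autosomal allelic reads, mean over 10 samples. Chromosome 16 stands at 0.355 on the left and, on the right, its Cast level of 1.20 lies above all other values while its B6 level of 0.660 lies among those of the other autosomes.

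The median B6 level of chromosome 16 lay in the lower part of the range of the other autosomes, and the median Cast level lay above their range. Scaled to 1 kb of gene and 1000000 autosomal allelic reads, the median level of the B6 copy was 0.660 on chromosome 16 and 0.552 to 0.883 on the other autosomes, and it ranked 16th of 19. The median level of the Cast copy was 1.20 on chromosome 16 and 0.523 to 0.778 on the others. It was the highest of the 19 autosomes in each of the 10 samples, between 1.1597 and 1.2651. Relative to the median of the other 18 autosomes, the B6 level was 0.941-fold, the Cast level 1.92-fold and the level of all reads, with or without an allele, 1.46-fold. Against other autosomal genes in 3 classes of length, from short to long, the B6 level was 0.88, 1.06 and 0.85-fold. The Cast level was 1.69, 2.32 and 1.86-fold. In 3 classes of total level, from low to high, the B6 level was 0.50, 0.66 and 0.68-fold and the Cast level 1.27, 1.41 and 1.41-fold. Genes passed the read limit on B6 and Cast reads together. In all reads the members had a median of 2.02 reads per kb in 1000000 autosomal reads, against 1.21 to 1.52 on the other autosomes. Chromosome 16 took 3.34% of the autosomal B6 reads, 6.49% of the Cast reads and 5.30% of all reads.

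Most genes of the chromosome took part. Of the 393 members, 330 (84.0%) had a share below 0.5 in all 10 samples, 19 lay above 0.5 in all 10 and 44 fell on both sides. On the other autosomes 13.6% of the genes were below 0.5 in all 10 samples. The middle members were close together: the quartiles of the mean share were 0.324 and 0.387, and those of the other autosomes 0.485 and 0.569. On the log2 scale the interquartile range was 0.40, within the 0.40 to 0.58 of the other autosomes. The study kept genes with a d-score from 0.3 to 0.7 at 0 h. This limit would keep 312 members (79.4%) and remove 74 for a low share, whereas it would keep 89.9% of the genes of the other autosomes and remove 3.52% for a low share.

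The members with the most reads show the excess at the level of single genes. Morc1, a chromatin protein of the germline, had 38403 B6 and 78456 Cast reads in all and a share between 0.318 and 0.345 over the samples, with a median of 0.329. Etv5, an ETS transcription factor, lay at 0.303 to 0.329 (median 0.318), and Usp7, a deubiquitinase that acts on p53 and Mdm2, at 0.351 to 0.380 (median 0.369). Jam2, a junctional adhesion molecule, lay at 0.343 to 0.379 (median 0.360), and Brwd1, a bromodomain protein, at 0.356 to 0.375 (median 0.363). Zfp148, a zinc finger transcription factor, lay at 0.429 to 0.453 (median 0.444), above the ranges of the other 5. All 6 were under 0.5 in every sample. For the 255 members that reached 200 allelic reads in all samples, the SD of a gene's share over the 10 samples had a median of 0.0148, and over the 393 members' means the SD was 0.112.

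The excess was seen all along the chromosome, and the median share varied between windows. Whether the excess differed between stretches or changed in steps was not tested. In windows of 10 Mb the median share of the members lay between 0.315 (70 to 80 Mb, 9 genes) and 0.374 (60 to 70 Mb, 10 genes). The 3 windows from 0 to 30 Mb, with 41, 87 and 50 genes, stood at 0.342, 0.344 and 0.342, and the window from 90 to 100 Mb, with 57 genes, at 0.370. In single samples the 10 windows ranged from 0.289 to 0.398. None of the 242 windows with at least 5 genes on the other autosomes reached as low. Their medians ran from 0.475, over 23 genes on chromosome 6, to 0.634, a wider range than that of the windows of chromosome 16. Member genes were found from 3.74 to 98.1 Mb, so the stretch before the first of them was not measured.

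**Figure D2:**
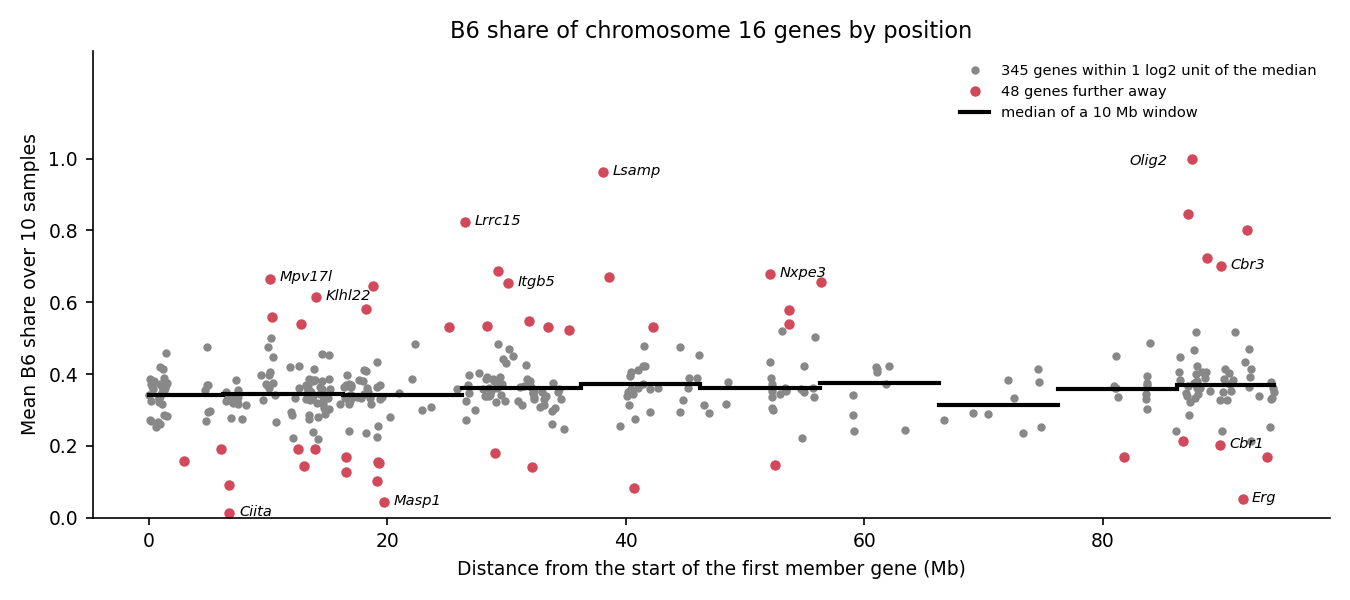
Mean B6 share over 10 samples of each of the 393 members against the distance of its midpoint from the start of the first member gene. Grey points are the 345 genes within 1 log2 unit of the median B6 to Cast ratio of the members, red points the 48 further away, and black lines the medians of 10 Mb windows. The lines stay between 0.315 and 0.374, and red points lie on both sides of them along the chromosome.

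The median log2 ratio of the members minus that of the other autosomes was also taken within classes of genes, as a description. By gene length, in 3 classes of equal size from short to long, it was −0.98, −0.98 and −1.05. Members with under 10 CG dinucleotides upstream differed from their counterparts by −1.02 and those with 10 or more by −0.98. The difference was −1.003 for the 367 protein coding genes and −1.014 for the 26 others. On the plus strand it was −0.96 and on the minus strand −1.04.

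By function, the lists of members sat at the level of the chromosome. No list had a median far from the 0.355 of all members. In the lists, genes were counted as below 0.5 by their mean share. By this measure 92.1% of all members and 32.8% of the genes of the other autosomes were below 0.5. Of 96 chromosome 16 orthologs of human chromosome 21 genes, 67 were members, with a median share of 0.365. Of these, 62 were below 0.5 and 8 departed by more than 1 log2 unit from the median B6 to Cast ratio of the members. Among all members 12.2% departed, as did 12.2% of the genes of the other autosomes from the median of their own chromosome. Jam2, Brwd1 and Ttc3, a ubiquitin ligase with a mean share of 0.372 ± 0.00501 (SD, n = 10), had the most reads. The orthologs of 22q11.2 genes had 34 members, a median of 0.345 and 33 below 0.5. They ran from 0.220 for Slc25a1, the mitochondrial citrate carrier, to 0.614 for Klhl22, an adaptor of a CUL3 ubiquitin ligase and the 1 member of this list that departed. Hira, a chaperone of histone H3.3, stood at 0.357 ± 0.00609.

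All 21 chromosome 16 genes on the list for DNA replication, repair and chromosome segregation were members, and their median share was 0.346, with 20 below 0.5. Prkdc, the catalytic subunit of DNA-dependent protein kinase, had 0.286 ± 0.00563, and Spidr, a scaffold of homologous recombination, 0.335 ± 0.00530. The 24 genes on the list for translation and ribosome biogenesis, which also holds genes with other roles, had a median of 0.347, and 23 were below 0.5. Among them Eif4a2, an RNA helicase of translation initiation, stood at 0.368 ± 0.00455, Igf2bp2, an mRNA-binding protein, at 0.349 ± 0.00618 and Tra2b, a splicing regulator, at 0.3334 ± 0.00795. The 35 members among transcription factors and chromatin regulators had a median of 0.357, and 34 were below 0.5. The exception was Olig2.

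A minority of genes departed from the chromosome-wide ratio. Departure was taken as a log2 B6 to Cast ratio, over all samples together, more than 1 from the median of the members, which corresponds to a share above 0.524 or below 0.216. This applied to 48 members, 26 towards B6 and 22 towards Cast. By the same rule, against the median of their own chromosome, 12.2% of the genes of the other autosomes departed, and the 48 members were also 12.2%. The share of departing genes on single other autosomes ran from 7.14% to 16.8%. Just inside the limit, by log2 distance from the median, were Sh3bgr (−0.999) and Tmem45a (0.988), and just outside it Hunk (−1.023) and Igsf11 (1.002). The count was 29 among the 329 members that had 50 or more allelic reads in all samples, 12 among the 255 with at least 200, and 91 with a limit of 0.58 instead of 1. For these settings the share of departing genes on the other autosomes is not given, so the counts have no background beside them.

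At the Cast end, among members that reached 100 allelic reads in all samples, were genes transcribed almost from Cast alone. Masp1 (chr16:23451785-23520590), a serine protease of the lectin pathway of complement, had 69 B6 and 1499 Cast reads in all, and its share was 0.0219 to 0.0796 with a median of 0.0403. Erg (chr16:95359169-95586593), an ETS transcription factor of blood and endothelium, had 83 B6 and 1536 Cast reads and a share of 0.0298 to 0.0788 (median 0.0496). In every sample both lay far below the median of the chromosome. Tvp23a stood at 0.0462 to 0.122 (median 0.0934), Parp14, an ADP-ribosyltransferase, at 0.0896 to 0.213 (median 0.137), and Kng2, a kininogen, at 0.131 to 0.183 (median 0.151). Cyyr1 had 0.0921 to 0.254 (median 0.160). The upstream windows of Kng2 and Cyyr1 held 2 and 5 CG dinucleotides, and that of Erg 14. No window was matched for Masp1, Tvp23a and Parp14.

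At the B6 end, the 6 highest of the members that reached 100 allelic reads in all samples gave more reads from B6 than from Cast in all or nearly all samples. Nxpe3 (chr16:55839953-55895279) had 2931 B6 and 1386 Cast reads and a share of 0.637 to 0.702 (median 0.685). Mpv17l (chr16:13903161-13949619) lay at 0.625 to 0.718 (median 0.668). Itgb5 (chr16:33829665-33949338), the β5 subunit of integrins, had 12473 B6 and 6583 Cast reads and the narrowest range of the 6, 0.640 to 0.674 (median 0.654). Klhl22 stood at 0.590 to 0.653 (median 0.611), and 2900011O08Rik at 0.546 to 0.578 (median 0.559). Sema5b, a semaphorin, ran from 0.493 to 0.590 (median 0.547) and was below 0.5 in 1 of 10 samples. The upstream windows of Nxpe3, Itgb5, Klhl22 and Sema5b held 27, 18, 13 and 19 CG dinucleotides.

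**Figure D3:**
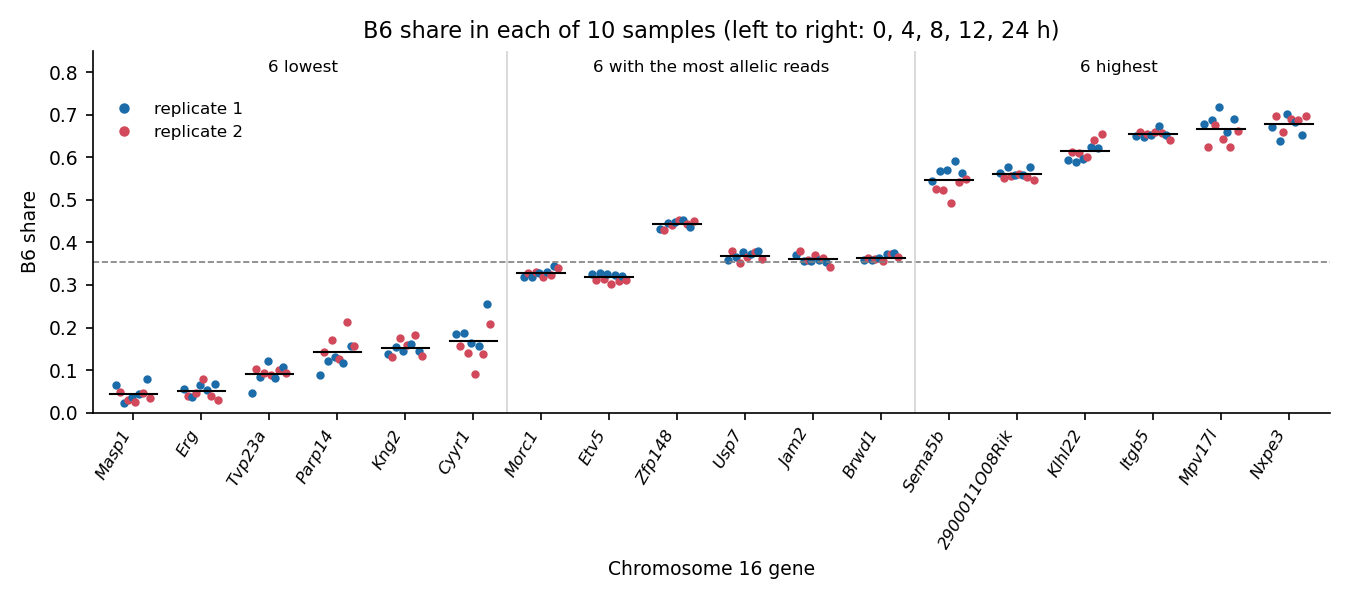
B6 share of 18 members in each of the 10 samples, ordered from left to right by time within a gene and coloured by replicate. Black bars are means over the 10 samples and the dashed line is the mean of the median share of chromosome 16, 0.355. The 6 genes with the most allelic reads lie at 0.303 to 0.453. The 6 lowest and 6 highest were taken among genes that reached 100 allelic reads in all samples, the 6 lowest lying below the line in every sample and the 6 highest above it in every sample.

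Further genes stood at the extremes with fewer reads, and were picked here after their values were seen. Olig2, a transcription factor of the oligodendrocyte lineage, had 545 B6 reads and 0 Cast reads over the 10 samples, 44 to 82 reads in each, which allows a Cast share of up to 0.550%, for counting error only. Lsamp, a neural adhesion molecule, had 412 B6 and 16 Cast reads. Ciita, the transactivator of MHC class II genes, had 15 B6 and 1181 Cast reads and lay next to Tvp23a among the members. There were 7 pairs of departing members with no other member between them, 5 of them in the same direction. The pair Cbr1 and Cbr3, both carbonyl reductases, went in opposite directions. Cbr1 (chr16:93607837-93610349) had 190 B6 and 744 Cast reads and a share of 0.150 to 0.237, and Cbr3 (chr16:93683219-93690991) had 604 B6 and 249 Cast reads and a share of 0.581 to 0.785. The ranges of both genes did not overlap in any sample, and their lowest samples had 75 and 62 allelic reads. The longest stretch shared by any annotated transcripts of both was 50 bases, and per the methods of the study only unique alignments were kept. Whether any read was assigned to the wrong gene of the pair was not tested.

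The departing genes were longer and less transcribed than the rest. Their median length was 64.1 kb against 29.7 kb for the 345 other members, and their median total level was 0.211 against 2.39 reads per kb in 1000000 autosomal reads. Departing genes of the other autosomes had a median level of 0.261, against 1.55 for those that did not depart. Of the 48, 12 had 200 or more allelic reads in every sample and 19 had fewer than 50, so the shares of the latter are less exact. At least 10 CG dinucleotides lay upstream of 28.6% of the 14 members departing towards Cast with a matched window, 78.3% of the 23 departing towards B6 and 80.2% of the 283 other members. On the other autosomes the values were 55.0%, 56.6% and 79.8%.

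Whether the excess moved over the course of DOX treatment was the question that the choice of the chromosome had not used. The median share of the members of replicates 1 and 2 was 0.357 and 0.355 before DOX, 0.352 and 0.353 after 4 h, 0.355 and 0.356 after 8 h, 0.357 and 0.352 after 12 h, then 0.353 and 0.357 after 24 h. Over the same hours the median of the X-linked genes went from 0.500 and 0.493 to 0.282 and 0.283. No relation of the members' share to hours of DOX was detected over the 10 samples, with Pearson's r = 0.103 (permutation p = 0.765, adjusted p = 0.765 over 3 relations with 2 coefficients each) and Spearman's rho = 0.148 (permutation p = 0.699, adjusted p = 0.765). Without both 24 h samples, which are farthest from the median time, r was −0.0319. For the median of the other autosomes r was 0.507 (permutation p = 0.150, adjusted p = 0.301).

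**Figure D4:**
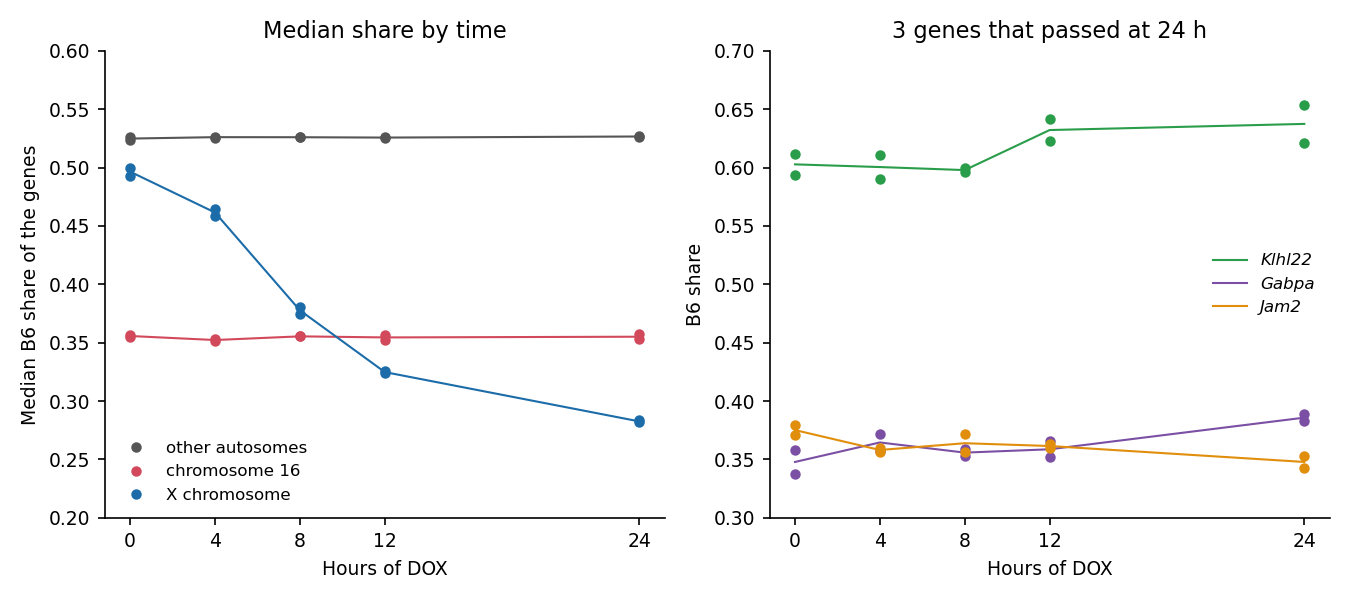
Left, median B6 share of the chromosome 16 members, of the genes of the other autosomes and of X-linked genes by hours of DOX (points, the 2 replicates; lines, means). Right, the B6 share of Klhl22, Gabpa and Jam2. Chromosome 16 stays between 0.352 and 0.357 while the X-linked median goes to 0.282 and 0.283, and on the right the 24 h samples lie above both 0 h samples for Klhl22 and Gabpa and below them for Jam2.

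No difference between the replicate series was detected. The mean of the median share was 0.355 ± 0.00230 (SD, n = 5) in replicate 1 and 0.355 ± 0.00194 (n = 5) in replicate 2, a difference of 0.000178 (exact permutation test, two-sided, p = 0.897, adjusted p = 0.944 over 3 comparisons). The smallest p this design allows is 0.00794. With 2 samples per time, no exact test between 2 times could go below p = 1 in 3.

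The part of chromosome 16 in all autosomal reads kept within a narrow range. In replicates 1 and 2 the values were 5.23% and 5.31% before DOX, 5.32% and 5.27% after 4 h, 5.30% and 5.28% after 8 h, 5.31% and 5.32% after 12 h, then 5.36% and 5.31% after 24 h. The lowest value was that of replicate 1 at 0 h and the highest that of replicate 1 at 24 h. Pearson's r with hours was 0.647 (permutation p = 0.0423, adjusted p = 0.254) and Spearman's rho 0.542 (permutation p = 0.118, adjusted p = 0.301), which does not pass after adjustment. Without both 24 h samples r was 0.479. Without the 10 members with the most counts the mean was 4.39% in place of 5.30%.

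Gene by gene, few members changed their B6 share. In edgeR's quasi-likelihood test with Benjamini-Hochberg adjustment over 11906 genes, 0 members passed at 4 h, 0 at 8 h and 0 at 12 h against 0 h. On the other autosomes 0.00897%, 0.0717% and 0.179% of the genes passed. At an unadjusted p under 0.05 there were 13, 16 and 19 members at these times (3.31%, 4.07% and 4.83%), against 4.19%, 4.00% and 5.31% of the genes of the other autosomes, and DESeq2 also called 0 at each. At 24 h 3 members passed, 2 higher and 1 lower in B6 share, against 0.35% of the genes of the other autosomes, and 27 members (6.87%) were under an unadjusted p of 0.05, against 5.74% on the other autosomes. DESeq2 called 0 at 24 h, and leaving out replicate 2 at 24 h left 1. The median change of the members at 24 h was 0.01 on the log2 scale of the B6 to Cast ratio, and that of the other autosomes 0.02.

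Jam2 (chr16:84774123-84826375) had shares of 0.371 and 0.379 before DOX, 0.357 and 0.359 after 4 h, 0.356 and 0.371 after 8 h, 0.360 and 0.363 after 12 h, then 0.353 and 0.343 after 24 h. Both 24 h samples lay below all 8 others, and the log2 ratio fell by 0.17 (SE 0.04, edgeR adjusted p = 0.00882). Gabpa (chr16:84835124-84863778), the DNA-binding subunit of the ETS factor GABP and the next gene but one among the members, went the other way. Its shares were 0.337 and 0.358 before DOX, 0.372 and 0.358 after 4 h, 0.359 and 0.353 after 8 h, 0.365 and 0.352 after 12 h, then 0.383 and 0.389 after 24 h. Both 24 h samples were above all others, and the log2 ratio rose by 0.24 (SE 0.07, edgeR adjusted p = 0.0192). Klhl22 (chr16:17759621-17793382), already among the highest, had 0.594 and 0.612 before DOX, 0.590 and 0.611 after 4 h, 0.596 and 0.600 after 8 h, 0.623 and 0.641 after 12 h, then 0.621 and 0.653 after 24 h. The 4 samples from 12 and 24 h were above the other 6, and at 24 h the log2 ratio rose by 0.22 (SE 0.06, edgeR adjusted p = 0.0189). 

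Total counts, which use reads with and without an allele, changed at few of the 393 members as well. At 12 and 24 h more members passed with the replicate number as a block, as given below. In the edgeR fit, 0 members passed at 4 h, 0 at 8 h and 0 at 12 h, where 0.00739%, 0% and 0.177% of the genes of the other autosomes did. The unadjusted p was under 0.05 for 7, 8 and 40 members (1.78%, 2.04% and 10.2%), against 1.90%, 2.67% and 9.61% on the other autosomes, and DESeq2 called 0, 0 and 1. At 24 h 3 members passed, 2 higher and 1 lower, against 0.539% on the other autosomes. Samples with the same replicate number deviated together in total counts, and with the replicate number as a block 12 members passed at 12 h (9 higher, 3 lower) and 15 at 24 h (13 higher, 2 lower). In the same blocked fit 3.13% of the genes of the other autosomes passed at 12 h and 3.28% at 24 h. Among genes named above, the calls gained with the block in edgeR were, with the log2 change of the fit without it, Kng2 (0.36, adjusted p = 0.0253) and Slc25a1 (−0.35, adjusted p = 0.0196) at 12 h, and Jam2 (0.26, adjusted p = 0.0247), Sema5b (0.29, adjusted p = 0.0146) and 2900011O08Rik (−0.28, adjusted p = 0.0151) at 24 h. The count at 24 h was 1 without replicate 1 at 0 h, 1 without replicate 1 at 24 h and 0 without replicate 2 at 24 h. The median change of the members at 24 h was 0.03 on the log2 scale and that of the other autosomes 0.01.

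Btla (chr16:45224337-45252895), an inhibitory receptor of lymphocytes, had 16.7 and 16.3 CPM at 0 h, 14.3 to 16.1 CPM from 4 to 12 h, and 10.9 and 10.1 CPM at 24 h. Both 24 h samples were below all others, and the count fell by 0.66 on the log2 scale (SE 0.11, edgeR adjusted p = 0.00490, and 8.4e-05 with the block). Ifngr2 (chr16:91547094-91564007), a subunit of the interferon gamma receptor, had 5.27 and 5.26 CPM at 0 h, 5.05 to 7.15 CPM from 4 to 12 h, and 9.59 and 8.66 CPM at 24 h. It rose by 0.79 (SE 0.17, edgeR adjusted p = 0.0251, and 0.00057 with the block). Liph (chr16:21953818-21995542), a membrane-associated phospholipase, had 58.6 and 67.4 CPM at 0 h, 54.9 to 69.9 CPM from 4 to 12 h, and 82.0 and 82.8 CPM at 24 h. It rose by 0.39 (SE 0.09, edgeR adjusted p = 0.0480, and 0.000283 with the block). For both, the 24 h samples were above all others. The B6 share of these 3 genes did not pass at any time, with adjusted p of 0.469, 0.991 and 0.172 at 24 h in edgeR. Jam2 and Gabpa for the share and Ifngr2 for the total count were the calls among the orthologs of human chromosome 21 genes, and Klhl22 was the call among those of 22q11.2 genes. Gabpa was also the call among the transcription factors and chromatin regulators. At each time the edgeR fits called 0 of the 21 genes on the replication and repair list and 0 of the 24 on the translation list.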

How the data were processed

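TT-seq libraries of 10 samples were analysed. Per the methods of the study, the authors removed adapters, mapped read pairs to an mm10 genome masked at positions that differ between the strains, kept unique alignments, split reads by allele with SNPSplit and counted them per gene on the annotated strand with featureCounts 1.5.1. The deposited tables hold raw counts of all reads, of B6 reads and of Cast reads over the whole gene, introns included, and the fraction B6 over B6 plus Cast, which was recomputed from the counts. Total and allelic counts were used as deposited. Labelled spike-ins were not used here, so levels are relative to the library.

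Members and gene lists were chosen with earlier results of these data known. Named genes were, among members that reached 100 allelic reads in all samples, the 6 highest and 6 lowest in mean share, the 6 members with the most reads, those that passed in a fit, the 3 with the most reads per list and 2 genes on each side of the 10 read limit. One gene that this rule names is not reported here.

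B6 and Cast counts were fitted in edgeR 4.0.16 (R 4.3.3) with a term per sample, the allele and allele by time, over all genes that pass the read limit, and total counts with time as a factor after filtering low counts. All 10 samples shared the estimate of spread. P-values were adjusted by Benjamini-Hochberg over all genes at a threshold of 0.05. The SE was taken from the log2 change and its F statistic. Shares on the log scale used an added count of 0.5. Replicate numbers are in the labels, which do not say whether replicates were separate cultures, so p-values measure the spread between these samples. Samples of one number deviated together in total counts (correlation of deviations 0.142 to 0.281 over 10 pairs of times, all above 0.1). In the B6 ratio they did so only weakly (0.0150 to 0.0575). Correlations used 100000 permutations. The fits were tested on simulated data in which 200 genes were doubled or halved at 24 h. For the B6 share 74% of these were recovered, and for total counts 70.5%. In the simulation a gene's share varied between replicates by counting only, and total levels had the same spread for all genes. These rates may therefore not hold for the real libraries. Smaller changes were not simulated. Deposited starts count from 0 and are printed from 1. Alternatives were DESeq2 1.42.0, other filters, other size factors, the block and each sample left out.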

Additional observations from a re-analysis of the deposited data

How the results depend on the processing

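Of 199 alternative values over 15 results, 172 kept their direction and their side of the threshold or stayed within the spread. The median share of the members was 0.359 with pooled reads and 0.364 for genes with a 0 h share from 0.3 to 0.7, where the difference from the other autosomes was −0.159, and 0.354 to 0.355 with a sample left out. The part of chromosome 16 in autosomal reads was 5.17% for members only and 4.39% without the 10 members with the most counts. The number of departing genes was 29 and 12 with a minimum of 50 and 200 allelic reads and 91 with a limit of 0.58, with no count for the other autosomes beside these. The rho with hours was −0.0488 without both 24 h samples. Within one replicate series a relation to hours was not run, since 5 samples are too few. The difference between replicates ran from −0.000372 to 0.000953 with a sample left out and passed the threshold in none of these.

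Samples of one number deviated together only weakly in the B6 ratio (correlation of deviations 0.0150 to 0.0575). For the B6 share, the replicate block gave 1 member at 8 h, 2 at 12 h and 6 at 24 h, and DESeq2 gave 0 at 24 h. The share of genes of the other autosomes that passed in this blocked fit is not given here. These counts therefore cannot be set against a background. With a sample left out the counts were 0 to 1 at 12 h and 1 to 4 at 24 h. For total counts, the replicate block gave 12 members at 12 h and 15 at 24 h, and no filter on low counts and DESeq2 each gave 1 at 12 h. The 6 calls named at 24 h still passed with the block. With a sample left out the counts were 0 to 1 at 12 h and 0 to 3 at 24 h. The cause of these moves was not tested.

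Depth limits single genes: 64 of the 393 members had fewer than 50 allelic reads in some sample. The copy number of chromosome 16 was not measured in these files.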
